A study of Homo sapiens with 15 samples.

Results

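The comparison set Caco-2 cells given trans-resveratrol and then lipopolysaccharide against untreated cells, array by array. Caco-2 is an established human colon carcinoma line that takes on enterocyte features in long culture. Of the 15 arrays of the study, 10 entered the comparison: 5 labelled Caco2_LPS+RSV and 5 labelled Caco-2_Control. They were taken by title, and arrays carrying the same number were treated as pairs, once with all 5 pairs and once with pairs 2 to 5. LPS+RSV cells received 50 µM trans-resveratrol (RSV), a plant polyphenol dissolved in ethanol, 1 h before LPS from E. coli K12 at 1 µg/mL for 48 h. Control cells were untreated, and the labels do not say whether they received ethanol. The other 5 arrays, of cells given the same LPS without resveratrol, are quoted only as levels set beside these. All cells were used 15 to 19 days after seeding, and which array belongs to which day is not given. The numbers are not said to mark separate cultures, so the p-values below rest on array-to-array spread that may be technical. No group received resveratrol alone, so what resveratrol does without LPS was not measured.

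LPS is sensed by TLR4 together with the co-receptor CD14, and signalling runs through kinases to NF-kappaB and to mitogen-activated protein kinases, which switch on early response genes and chemokines. Resveratrol is known as an antioxidant that acts on sirtuins, on the aryl hydrocarbon receptor and on lipid synthesis, among many reported targets. Differentiated enterocytes absorb fat and re-export it as lipoproteins, which is why lipid genes are of interest in this setting.

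The measurement was a log2 expression value per gene and array. Of 16 markers of enterocytes and colon epithelium, 12 were named on the array. All 12 lay above the 40th percentile of every one of the 10 arrays. The mean level of these markers ran from 9.27 to 9.71 in control arrays and from 9.14 to 9.89 in LPS+RSV arrays. Most genes pass this bar: 11804 of 14884 symbols lay above that percentile in at least 5 arrays of the study. Passing it therefore does not tell enterocytes from other cells. Markers of other cell types were mixed. The goblet markers TFF3, SPDEF and FCGBP, the enteroendocrine marker NEUROG3, the Paneth marker LYZ and the fibroblast marker THY1 lay above that percentile on 10 arrays, CHGB and REG3A on 8, CHGA on 6 and LUM on 1. CLCA1, GCG and DCN did so on 0 arrays. The mean level of the 4 named goblet markers ran from 5.73 to 5.91 in control and from 5.75 to 6.07 in LPS+RSV, and that of the 3 named fibroblast markers from 4.67 to 4.81 and from 4.34 to 4.69. The part of other cell types in the results was not tested. Of the leukocyte markers CD68 alone was named, at 11.51 in control and 11.71 in LPS+RSV, and it is also a lysosomal protein of other cells. LPS+RSV replicate 1 stood apart: its mean correlation across genes with the other 9 arrays was 0.949, and it lay at 35.5 on a first principal component that took 55.4% of the variance. The groups themselves took 15.7% of the variance.

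Whether a shared number marks a shared source was checked from each array's deviation from its group mean. Over all 5 pairs the same-numbered correlations across genes were -0.44, 0.71, 0.06, 0.10 and 0.43 for pairs 1 to 5. LPS+RSV replicate 1 deviated in the direction opposite to control replicate 1, and 3 of the 5 correlations were over 0.1. Over all 5 pairs, 3 of 5 LPS+RSV arrays and 1 of 5 control arrays correlated best with the array of their own number. With number 1 left out and means taken over the other arrays, the correlations were 0.70, 0.17, 0.33 and 0.56, and 4 of 4 LPS+RSV arrays correlated best with the control array of their own number. In the other direction 3 of 4 control arrays did so, since control 4 correlated at 0.36 with LPS+RSV 5 and at 0.33 with LPS+RSV 4. Control 3 correlated at 0.17 with LPS+RSV 3 and at 0.15 with LPS+RSV 2. The rule that every same-numbered correlation exceed 0.1 was met in pairs 2 to 5 and not over all 5. Meeting it does not show that a number marks a shared source.

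**Figure D1:**
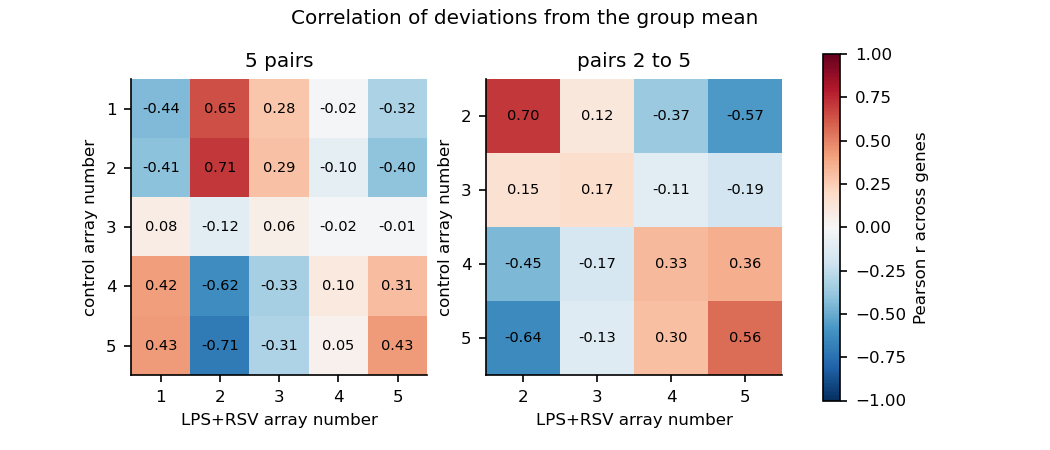
Pearson correlation across 11804 genes between the deviation of each control array (rows) and of each LPS+RSV array (columns) from its group mean, for 5 pairs (left) and for pairs 2 to 5 (right). The diagonal holds same-numbered arrays, at -0.44 for pair 1 on the left and between 0.17 and 0.70 on the right.

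The first question was how many genes differed between LPS+RSV and control. No fit called any gene at a Benjamini-Hochberg adjusted p under 0.05 in limma: 0 of 11804 (0.00%) over 5 pairs, 0 (0.00%) over pairs 2 to 5 and 0 (0.00%) without pairing. The lowest adjusted p in limma was 0.547 over 5 pairs, 0.413 over pairs 2 to 5 and 0.590 without pairing. At an unadjusted p under 0.05 the counts were 896 genes (7.59%) over 5 pairs, 1114 (9.44%) over pairs 2 to 5 and 885 (7.50%) without pairing. Lower values outnumbered higher ones in each, with 532 lower (4.51%) and 364 higher (3.08%) over 5 pairs, 734 lower (6.22%) and 380 higher (3.22%) over pairs 2 to 5, and 511 lower (4.33%) and 374 higher (3.17%) without pairing. These counts leaned on single arrays. The 896 became 475 without pair 2 and 579 without pair 5, and the 885 became 426 without control replicate 1, 442 without control replicate 2 and 1618 without LPS+RSV replicate 2.

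The differences were also bounded. Over pairs 2 to 5 the 95% interval of the difference lay within 0.5 log2 units of 0 for 97.7% of genes, and over all 5 pairs for 84.7%. Over 5 pairs 167 genes differed by more than 0.5 in either direction and 0 by more than 1. Over pairs 2 to 5 only 2 genes differed by more than 0.5. Pair 1 carried most of the spread: 837 genes differed by more than 1 log2 unit within it, against 1, 1, 2 and 13 within pairs 2, 3, 4 and 5. The 5 LPS+RSV arrays did not overlap the 5 control arrays for 203 genes (1.72%): they lay above all of them for 74 (0.627%) and below all for 129 (1.09%). The 5 pair differences had 1 sign for 1713 genes (14.5%), above 0 for 712 (6.03%) and below 0 for 1001 (8.48%).

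Several endotoxin-response genes of a fixed list, higher with LPS alone than in control, lay near control in LPS+RSV. That list was chosen with earlier results of these arrays known, so the pattern may have shaped the choice. NOX1, a superoxide-producing NADPH oxidase of colon epithelium, read 6.56, 6.95, 6.91, 6.71 and 6.75 in control arrays 1 to 5. It read 6.77, 7.13, 6.78, 6.83 and 6.85 in LPS+RSV, and 9.51, 9.60, 7.89, 8.45 and 8.58 with LPS alone. The control and LPS+RSV ranges overlapped, and every LPS array lay above every array of both. The LPS+RSV minus control difference of NOX1 was 0.09 over 5 pairs, with a 95% interval of -0.08 to 0.27, and 0.06 over pairs 2 to 5, with an interval of -0.10 to 0.22. The comparisons of LPS and of LPS+RSV with control share the control arrays, so the levels are only set side by side.

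ETV4, an ETS transcription factor downstream of growth factor signalling, read 6.62 ± 0.27 in control, 6.63 ± 0.27 in LPS+RSV and 7.52 ± 0.18 with LPS alone (mean ± SD, n = 5 arrays each). Its paired difference between LPS+RSV and control was 0.01, with an interval of -0.18 to 0.19. KRT18, a keratin of simple epithelia, showed how closely paired arrays could track each other. Its control values of 9.92, 10.09, 9.85, 9.67 and 9.56 met LPS+RSV values of 10.01, 10.13, 9.90, 9.75 and 9.61. LPS+RSV was higher in all 5 pairs, yet by only 0.06 on average over 5 pairs (interval -0.08 to 0.21), and the mean with LPS alone was 10.55. MYC, a driver of growth and ribosome production, lay at 6.48 ± 0.20 in control, 6.54 ± 0.43 in LPS+RSV and 7.36 ± 0.37 with LPS alone.

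DUSP6, a phosphatase that ERK signalling induces to limit itself, had the widest difference of these genes. Control arrays read 6.85, 6.92, 6.70, 7.90 and 7.23, and LPS+RSV arrays 7.61, 6.91, 7.08, 7.85 and 7.60. The groups overlapped, and pairs 1, 3 and 5 were higher while pairs 2 and 4 were not. The difference was 0.29 over 5 pairs (limma adjusted p = 0.547) and 0.17 over pairs 2 to 5 (interval -0.04 to 0.39), with LPS alone at 8.40 ± 0.60. CCL20, a chemokine that NF-kappaB induces in gut epithelium, differed by -0.27 over 5 pairs and by 0.01 over pairs 2 to 5. Its LPS+RSV replicate 1 read 6.72 against 8.15 in control replicate 1. TOP1, the topoisomerase that relaxes DNA ahead of polymerases, read 10.20 ± 0.15 in control, 10.06 ± 0.11 in LPS+RSV and 10.60 ± 0.13 with LPS alone. TOP1 in LPS+RSV differed from control by -0.53, -0.10, -0.00, -0.02 and -0.04 in pairs 1 to 5. The difference was -0.14 over 5 pairs and -0.04 over pairs 2 to 5.

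**Figure D2:**
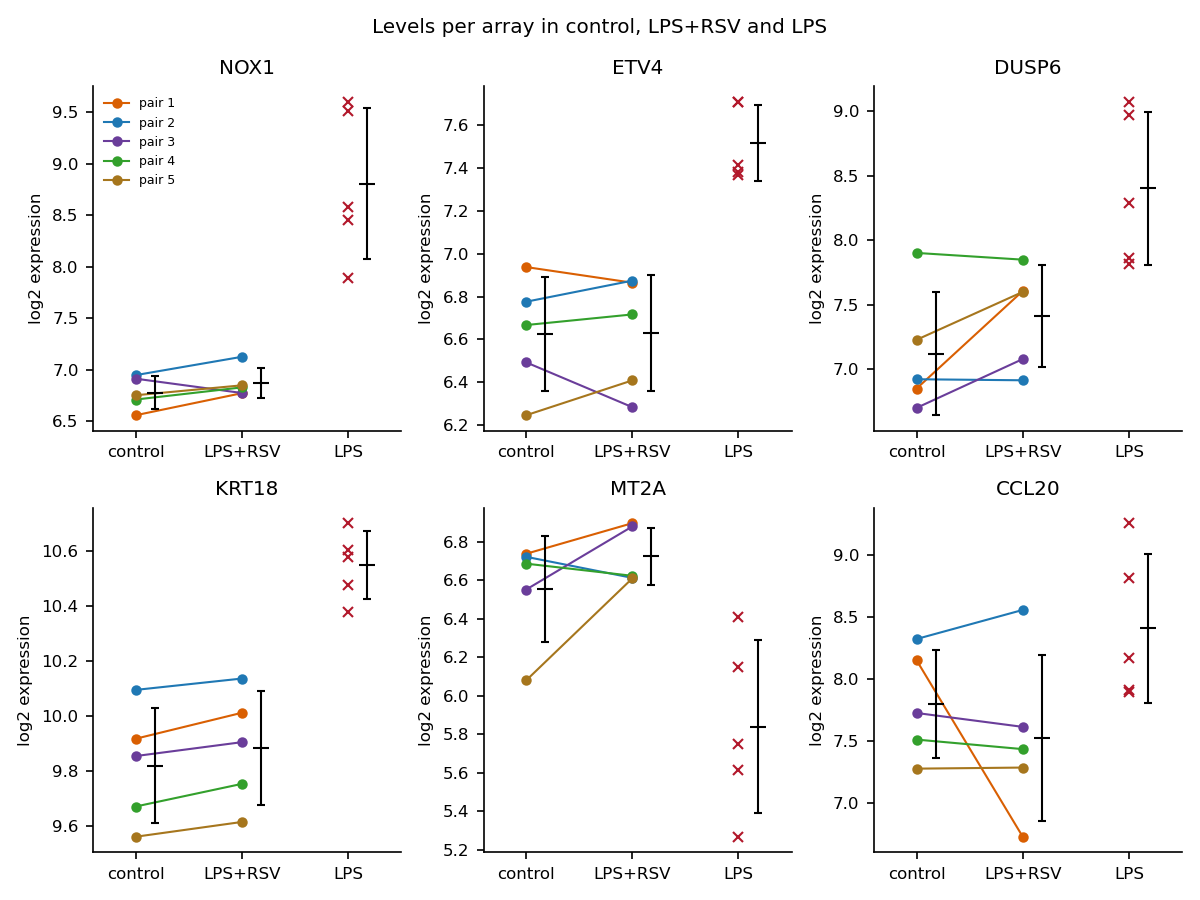
Log2 expression of NOX1, ETV4, DUSP6, KRT18, MT2A and CCL20 in each array. Coloured points joined by lines are same-numbered control and LPS+RSV arrays, crosses are the LPS arrays, and black bars are group means ± SD (n = 5); for NOX1 the LPS+RSV arrays lie between 6.77 and 7.13 and the LPS arrays between 7.89 and 9.60.

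Metallothioneins, small cysteine-rich proteins that bind zinc and copper, sit on the other side, with lower means under LPS alone than in control. They too were chosen with earlier results known. MT2A read 6.74, 6.72, 6.55, 6.69 and 6.08 in control, 6.90, 6.61, 6.88, 6.62 and 6.61 in LPS+RSV, and 5.75, 5.27, 6.41, 5.61 and 6.15 with LPS alone. All LPS+RSV arrays lay above all LPS arrays and inside or just above the control range. The LPS+RSV minus control difference of MT2A was 0.17 (interval -0.08 to 0.42) over 5 pairs, and MT1X differed by 0.19 (interval -0.14 to 0.52), with means of 6.44 in control, 6.63 in LPS+RSV and 5.79 with LPS alone. MT1F, another member of the cluster, read 8.94 ± 0.48 in control and 9.01 ± 0.14 in LPS+RSV. MT1E went the other way over pairs 2 to 5, by -0.34 (limma unadjusted p = 0.020), while its pair 1 difference was 1.12. MTF1, the zinc-sensing activator of these genes, differed by 0.09. The 5 tested members of the list had a median difference of 0.09 over 5 pairs and 0.17 over pairs 2 to 5, against 0.02 and 0.00 over all genes, and their score was higher in LPS+RSV in 4 of 5 pairs.

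Metallothionein promoters carry metal response elements, the short motif that MTF1 reads, and the 250 bases before the start of MT2A and MT1X are shown because the LPS+RSV mean of both genes lay near control and the LPS mean below it. The sequences are RefSeq's on GRCh38.p14, plus strand, at chr16:56608334-56608583 for MT2A and chr16:56682220-56682469 for MT1X, 5′ to 3′. Capitals mark matches to TGCACNC or TGCGCNC on either strand.
MT2A: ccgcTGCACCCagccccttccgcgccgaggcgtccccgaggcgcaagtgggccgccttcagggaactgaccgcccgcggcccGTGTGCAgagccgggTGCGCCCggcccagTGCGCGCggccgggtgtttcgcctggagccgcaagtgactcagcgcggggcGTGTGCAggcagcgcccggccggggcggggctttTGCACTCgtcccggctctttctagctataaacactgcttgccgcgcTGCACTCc
MT1X: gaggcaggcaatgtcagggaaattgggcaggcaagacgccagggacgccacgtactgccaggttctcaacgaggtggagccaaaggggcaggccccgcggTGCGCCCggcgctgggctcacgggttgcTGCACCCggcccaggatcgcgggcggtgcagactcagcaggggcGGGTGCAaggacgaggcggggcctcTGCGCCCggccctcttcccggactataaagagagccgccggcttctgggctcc
MT2A held 7 matches, 5 to TGCACNC and 2 to TGCGCNC, and MT1X held 4, with 2 of each. Of 35116 RefSeq windows of the same length, 24.8% held at least 1 match and 0.37% held at least 4. A match describes the letters and not a bound site.

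Lipid genes, the subject named in the study's title, lay close to control. FASN, the fatty acid synthase, read 8.81, 8.83, 8.43, 8.33 and 8.35 in control and 8.59, 8.78, 8.46, 8.43 and 8.45 in LPS+RSV. The groups overlapped fully, the difference was -0.01 (interval -0.18 to 0.17), and LPS alone stood at 8.88 ± 0.08. SCD, which makes monounsaturated fatty acids, differed by -0.04 (interval -0.21 to 0.13) on its brighter probe set, and by 0.29 on its dimmer one. SREBF1, which encodes the regulator of this program, differed by 0.07 (interval -0.08 to 0.22), and ACACB, an acetyl-CoA carboxylase that restrains fat oxidation, by 0.06. FADS1, a desaturase of polyunsaturated fatty acids, was higher in pairs 2 to 5, by 0.16 (limma unadjusted p = 0.018), and lower in pair 1.

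Of the 25 tested genes of fatty acid and triglyceride synthesis, 17 were higher and 8 lower over 5 pairs, where 55.8% of all genes were higher. The list median was 0.05 over 5 pairs and 0.02 over pairs 2 to 5. None of these 25 was called in any of the 3 fits, and at an unadjusted p under 0.05 over pairs 2 to 5 there were 1 higher, FADS1, and 1 lower, ACSL4 at -0.20, a long-chain acyl-CoA ligase. These 2 genes are 8% of the list, against 9.44% of all genes. The 16 cholesterol genes split 8 to 8, with a median of 0.00 in both fits. The genes of the fixed list were chosen with earlier results of these arrays known, so a fixed gene that stands out is no separate result. Among them CLYBL, a mitochondrial enzyme of citramalyl-CoA breakdown, had the lowest unadjusted p in each of the 3 fits. It read 6.56, 6.53, 6.45, 6.67 and 6.64 in control and 6.84, 6.53, 6.86, 7.01 and 6.94 in LPS+RSV, with LPS alone lower at 6.25 ± 0.14. LPS+RSV was above control in 4 of 5 pairs and level in pair 2, by 0.27 over 5 pairs and 0.26 over pairs 2 to 5 (limma adjusted p = 0.429 in the latter).

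Genes of fat export and oxidation depended on pair 1. APOA4, a lipoprotein component made by enterocytes, varied more between arrays than between groups. It read 8.56, 8.47, 9.55, 11.02 and 10.62 in control and 11.31, 7.48, 9.72, 11.18 and 11.17 in LPS+RSV. Its difference was 0.53 over 5 pairs and -0.02 over pairs 2 to 5 (interval -0.54 to 0.49). CPT1A, which admits fatty acids into mitochondria, gave 0.13 and -0.02, and PPARA, the receptor that drives fat oxidation genes, -0.06 and -0.08. The 12 oxidation genes had a median of 0.13 over 5 pairs and 0.02 over pairs 2 to 5, and the 8 lipoprotein and lipid uptake genes 0.15 and 0.01. In pair 1 alone the lipoprotein score differed by 0.95.

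Endotoxin sensing genes showed a small difference at CD14. CD14 read 5.61, 5.46, 5.34, 5.79 and 5.81 in control and 6.07, 5.76, 5.71, 5.85 and 5.92 in LPS+RSV. Every pair was higher although the groups overlapped, by 0.26 over 5 pairs (limma unadjusted p = 0.015, adjusted p = 0.547) and 0.21 over pairs 2 to 5. TLR4 itself, dim at 5.14 ± 0.18 in control, differed by -0.00 (interval -0.22 to 0.22). Of the 20 tested genes of the TLR4 and NF-kappaB pathway 10 were higher and 10 lower over 5 pairs. TAB1, an adaptor of the kinase TAK1, was higher in all 5 pairs by 0.17, while MAP3K7, which encodes TAK1, and CHUK, an IkappaB kinase subunit, were lower in all 5 pairs by -0.28 and -0.24. The 20 genes had a median of 0.02 over 5 pairs, and 0 of them passed the adjusted threshold in any of the 3 fits.

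Early response genes leaned upward without being called. Of 24 immediate early and MAPK response genes tested, 21 were higher and 3 lower over 5 pairs, with a median of 0.10. Over pairs 2 to 5, 17 were higher, with a median of 0.04. Of all genes, 55.8% and 50.4% were higher in these 2 fits. At an unadjusted p under 0.05, 3 of 24 (12.5%) were higher in either paired fit, against 3.08% of all genes over 5 pairs and 3.22% over pairs 2 to 5. FOS, a subunit of the AP-1 transcription factor, differed by 0.55, 0.47, 0.34, 0.01 and 0.33 in pairs 1 to 5. IER2, another early gene, differed by 0.37, 0.15, 0.28, 0.12 and 0.24, and KLF10, a zinc finger factor induced by TGF beta, by 0.35, 0.05, 0.13, 0.18 and 0.25. All 3 were higher in every pair. The list score, the mean log2 deviation of its genes, spanned -0.14 to 0.09 over the control arrays and -0.09 to 0.22 over the LPS+RSV arrays. LPS arrays held 0.18 to 0.49.

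Genes often linked to resveratrol differed little. SIRT1, the deacetylase most often named as its target, was lower in all 5 pairs, by -0.20 over 5 pairs (interval -0.42 to 0.02) and -0.11 over pairs 2 to 5. SIRT3, a mitochondrial sirtuin, differed by 0.12 and 0.03. TIPARP, which the aryl hydrocarbon receptor induces, differed by -0.03 (interval -0.19 to 0.13), and HMOX1, the haem-degrading target of NRF2, by 0.09 (interval -0.17 to 0.35). The 4 tested genes of the aryl hydrocarbon receptor list were all lower over pairs 2 to 5, with a median of -0.09, and the 8 NRF2 targets had medians of 0.12 over 5 pairs and 0.03 over pairs 2 to 5. KEAP1, which holds NRF2 back, was higher in all 5 pairs by 0.18. ABCC2, AHRR, CYP1B1, NQO1 and UGT1A6 were not analysed here.

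The genes of lowest p on the higher side are described next. Choice by p favours genes with little spread, so steadiness across pairs is no separate result. The same holds for intervals clear of 0 and for groups without overlap. SSTR5-AS1, an antisense RNA beside a somatostatin receptor gene, read 5.25, 5.03, 5.15, 4.97 and 5.24 in control and 5.64, 5.67, 5.40, 5.55 and 5.58 in LPS+RSV. The groups did not overlap, the difference was 0.44 (interval 0.25 to 0.63; limma adjusted p = 0.547 over 5 pairs), and LPS alone lay at 5.07 ± 0.19. LOXL4, an enzyme that cross-links collagen and elastin, read 6.43, 6.43, 6.46, 6.39 and 6.28 in control and 6.74, 6.73, 6.77, 6.64 and 6.55 in LPS+RSV. It was higher in every pair with no overlap, by 0.29 (interval 0.15 to 0.43, limma adjusted p = 0.547 over 5 pairs). Its LPS arrays ran from 6.18 to 6.68. CDRT15L2, LINC00974 and CD72, all below 5.2 in each control array, were higher in all 5 pairs by 0.46, 0.39 and 0.36. Their means were 4.83, 4.75 and 4.80 in control and 5.30, 5.14 and 5.15 in LPS+RSV. With LPS alone they were 5.19, 5.01 and 4.87. RIMBP3B was higher by 0.47 over pairs 2 to 5 and lower in pair 1. Its means over 5 arrays were 5.34 in control, 5.66 in LPS+RSV and 5.53 with LPS alone. Array signal at such levels sits close to the filter, whose threshold lay between 5.03 and 5.09.

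Among the lower genes of lowest p were microRNA genes. The labelled cDNA does not separate a mature strand from its precursor or host transcript, so these values are not levels of mature microRNA. MIR4633 read 5.65, 5.55, 5.70, 5.51 and 5.95 in control and 5.22, 5.18, 5.22, 5.34 and 5.50 in LPS+RSV, without overlap. Its difference was -0.38 (interval -0.55 to -0.21), with a limma adjusted p of 0.547 over 5 pairs. An interval clear of 0 follows in part from choosing genes by p. MIRLET7D, of the let-7 family that restrains growth regulators, differed by -0.36 over 5 pairs, and MIR3194 by -0.39. MIR548A2 differed by -0.41, and with LPS alone it lay at 5.18, beside 5.66 in control and 5.25 in LPS+RSV. MIR4633, MIRLET7D and MIR3194 lay at 5.52, 6.32 and 6.93 with LPS alone. Their means were 5.67, 6.43 and 6.94 in control and 5.29, 6.07 and 6.55 in LPS+RSV. LPS+RSV lay below control in all 5 pairs for each of these 4. Choice by p favours such genes, so the shared sign is no separate result. As a class the 494 tested microRNA genes split evenly over 5 pairs, 250 higher and 244 lower, and 282 were lower over pairs 2 to 5. Of these 494, 17 were lower and 8 higher in all 5 pairs, against 8.48% and 6.03% of all genes.

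The mature strands of 3 of them are shown because these genes are named among the lower genes of lowest p. Their seeds, bases 2 to 8 in capitals, decide which messages they pair with. For MIR548A2 no mature strand was at hand in the sources used here. The sequences are RefSeq's on GRCh38.p14, 5′ to 3′.
hsa-miR-4633-5p: aUAUGCCUggcuagcuccuc
hsa-miR-4633-3p: aGGAGCUAgccaggcauaugca
hsa-let-7d-5p: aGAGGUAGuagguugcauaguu
hsa-let-7d-3p: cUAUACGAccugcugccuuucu
hsa-miR-3194-5p: gGCCAGCCaccaggagggcug
hsa-miR-3194-3p: aGCUCUGCugcucacuggcagu
The 2 arms of miR-4633 lie on the plus strand at chr5:129097702-129097721 and chr5:129097737-129097758, those of let-7d on the plus strand at chr9:94178841-94178862 and chr9:94178895-94178916. Those of miR-3194 lie on the minus strand at chr20:51452948-51452968 for the 5p arm and chr20:51452912-51452933 for the 3p arm. No seed was shared between the 6 strands.

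Most of the remaining lower genes of lowest p encode proteins. They too were chosen by p, so a lower value in every pair is no separate result. AKAP9, a scaffold that anchors protein kinase A at the centrosome and Golgi, read 9.53, 9.45, 9.32, 9.13 and 9.08 in control and 7.10, 8.87, 9.10, 8.67 and 8.62 in LPS+RSV. VPS13A, a lipid transfer protein at membrane contacts, read 8.82, 8.66, 8.81, 8.92 and 9.03 in control and 7.30, 8.13, 8.58, 8.53 and 8.59 in LPS+RSV. ZNF107, a zinc finger protein, read 7.77, 7.80, 7.37, 7.30 and 7.08 in control and 6.68, 7.29, 7.07, 6.87 and 6.50 in LPS+RSV. All 3 were lower in every pair, most of all in pair 1, and VPS13A did so without overlap. UNC13C, LINC01277, DOP1A, IGIP and ADAM20P1 were also lower in all 5 pairs, by -0.50, -0.35, -0.41, -0.42 and -0.48 over 5 pairs. With LPS alone ADAM20P1 lay at 5.27 and LINC01277 at 7.50, near their LPS+RSV means of 5.24 and 7.46. Their control means were 5.72 and 7.81. UNC13C, DOP1A and IGIP lay at 8.78, 7.95 and 6.97 with LPS alone. Those 3 lay at 8.90, 8.06 and 7.09 in control and at 8.40, 7.65 and 6.67 in LPS+RSV.

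How the spread was moderated decided whether such genes were called. When the prior spread was allowed to follow expression level and to be robust to outlying genes, limma called 84 of 11804 genes (0.712%) over pairs 2 to 5, 79 lower (0.669%) and 5 higher (0.0424%), with a lowest adjusted p of 0.00914. The same settings called 0 genes over all 5 pairs, 0 without pairing and 0 without pairing in arrays 2 to 5. The trend without the robust option called 70. Leaving out a pair from the 84-gene fit gave 1 call without pair 2, 88 without pair 3, 0 without pair 4 and 14 without pair 5. All 84 kept their sign each time, but each refit reused pairs that had picked them, so the kept sign is no separate support. Of the calls made without a pair, 0 of 1, 56 of 88 and 12 of 14 were among the 84 with pairs 2, 3 and 5 left out.

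Under that setting the lower genes ran from -0.46 to -0.19 and the higher ones from 0.30 to 0.40. All 79 lower genes were lower in all 5 pairs, though pairs 2 to 5 had picked them. In pair 1, 82 of the 84 differed with the same sign and by a larger size. Pair 1 differed widely over all genes, with a mean absolute difference of 0.42. In pairs 2 to 5 that mean was 0.15, 0.12, 0.12 and 0.16. The share of all genes with such a pair 1 difference is not given here. Pair 1 had no part in that fit, but it had a part in the earlier work that led to its being set aside. Among the 79, AKAP9 stood at -0.43 and VPS13A at -0.40 (adjusted p = 0.0157 for each, limma trended and robust). CLK4, a kinase of splicing factors and a member of the splicing list, stood at -0.23. The median level of the 79 was 9.39 in control, 8.76 in LPS+RSV and 9.35 with LPS alone, against 6.83 in control over all genes.

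The 5 higher genes were short. SNAR-C1, a small noncoding RNA that binds the NF90 protein, read 9.10, 9.38, 9.14, 9.38 and 8.83 in control and 10.06, 9.71, 9.57, 9.79 and 9.11 in LPS+RSV. It was higher in every pair, by 0.36 over pairs 2 to 5 (adjusted p = 0.00914, limma trended and robust), with LPS alone at 9.16 ± 0.15. RPL39, a very small protein of the large ribosomal subunit, differed by 0.96, 0.33, 0.40, 0.29 and 0.34 in pairs 1 to 5. Its second, dimmer probe set differed by 0.06 over pairs 2 to 5. SCARNA12, which guides modification of spliceosomal RNAs in Cajal bodies, read 10.34, 10.38, 10.19, 10.44 and 10.24 in control and 10.89, 10.74, 10.60, 10.59 and 10.50 in LPS+RSV, without overlap, and its LPS arrays lay between 10.22 and 10.40. SNAR-B1 stood at 0.32, and ORM1, an acute-phase plasma protein, at 0.40 with a pair 1 difference of -0.17. The SNAR genes and RPL39 have near-identical copies elsewhere in the genome, so which copy the probes read is uncertain.

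**Figure D3:**
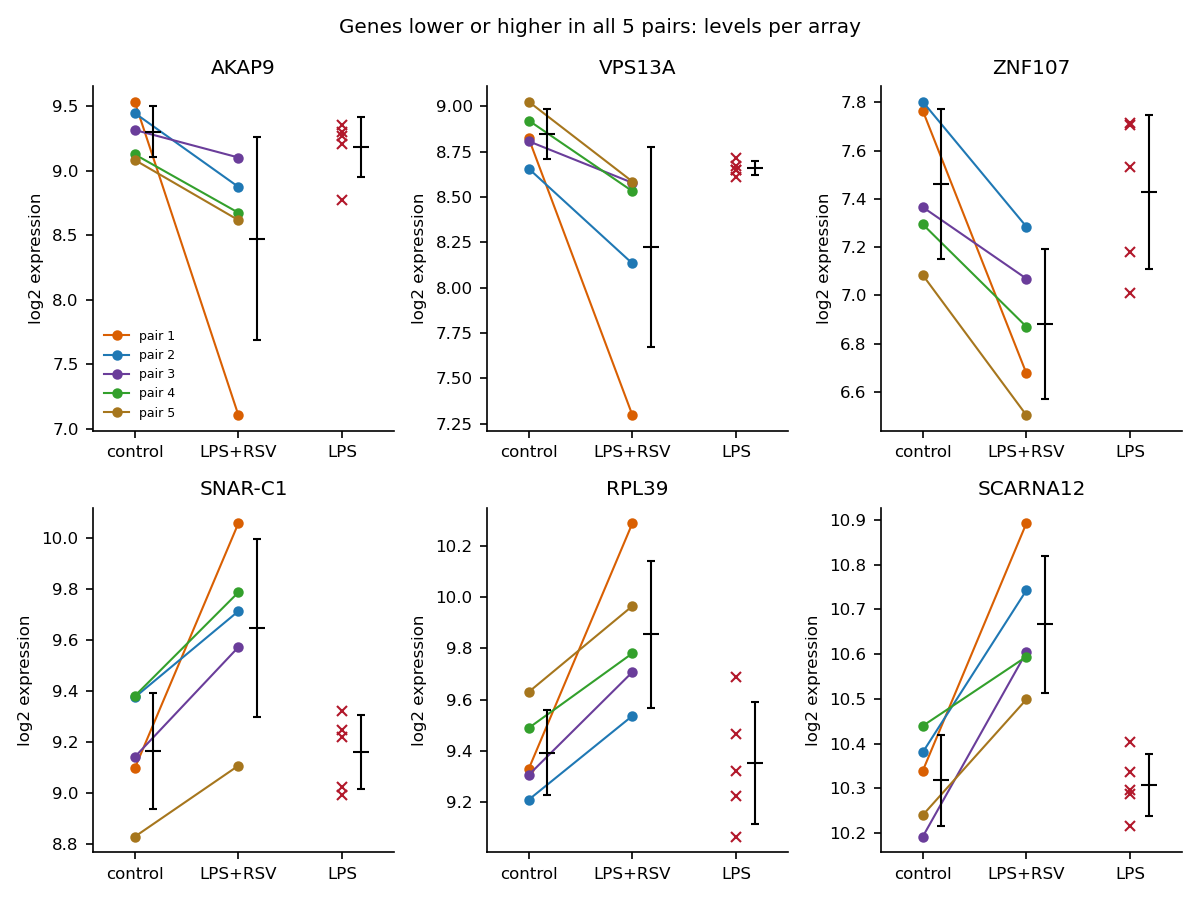
Log2 expression of 3 lower genes (AKAP9, VPS13A, ZNF107) and 3 higher genes (SNAR-C1, RPL39, SCARNA12) in each array. Coloured points joined by lines are same-numbered arrays, crosses are LPS arrays and bars are means ± SD (n = 5); every line runs down in the first 3 panels and up in the other 3, and for AKAP9 pair 1 falls from 9.53 to 7.10.

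Small Cajal body RNAs as a family, looked at because SCARNA12 stood out, leaned the same way. Of 22 tested, 17 were higher and 5 lower over 5 pairs with a median of 0.15, and 15 were higher over pairs 2 to 5 with a median of 0.07. Of all genes, 55.8% were higher over 5 pairs and 50.4% over pairs 2 to 5. Among the 2361 genes of shortest genomic span, which include these RNAs, 58.4% were higher over pairs 2 to 5. At an unadjusted p under 0.05 over pairs 2 to 5, 7 were higher, SCARNA12 itself among them, and 1 lower, against 3.22% of all genes higher and 6.22% lower. SCARNA10 was higher in all 5 pairs, by 0.51, 0.09, 0.13, 0.08 and 0.30, while SCARNA2 was higher in 4 of 5 pairs, by 0.39 over 5 pairs and 0.22 over pairs 2 to 5, with a pair 1 difference of 1.07. The 8 tested SNAR genes did not share 1 direction: 5 were higher and 3 lower over pairs 2 to 5.

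Differences moved with the genomic span of genes. With genes put in 5 bins of equal number from shortest (bin 1) to longest (bin 5), 52 of the 79 lower genes lay in bin 5. Their median span was 104 kb, against 22.2 kb over all genes and 0.27 kb for the 5 higher genes. Over all genes the median difference over pairs 2 to 5 was 0.02, 0.02, 0.01, -0.01 and -0.04 in bins 1 to 5. At an unadjusted p under 0.05 over pairs 2 to 5, bin 5 held 308 genes lower (13.0% of its 2361) and 31 higher (1.31%). Bin 1 held 89 lower (3.77% of its 2361) and 114 higher (4.83%). Over all genes 6.22% were lower and 3.22% higher. In pair 1 the medians were 0.23 in bin 1 and -0.16 in bin 5, and in pairs 2, 3, 4 and 5 bin 5 stood at -0.07, -0.01, -0.05 and -0.04. The sign of bin 5 was thus the same in all 5 pairs and its size largest in pair 1. RNA quality values were not used here, and the part of RNA quality or of gene length in these differences was not tested.

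**Figure D4:**
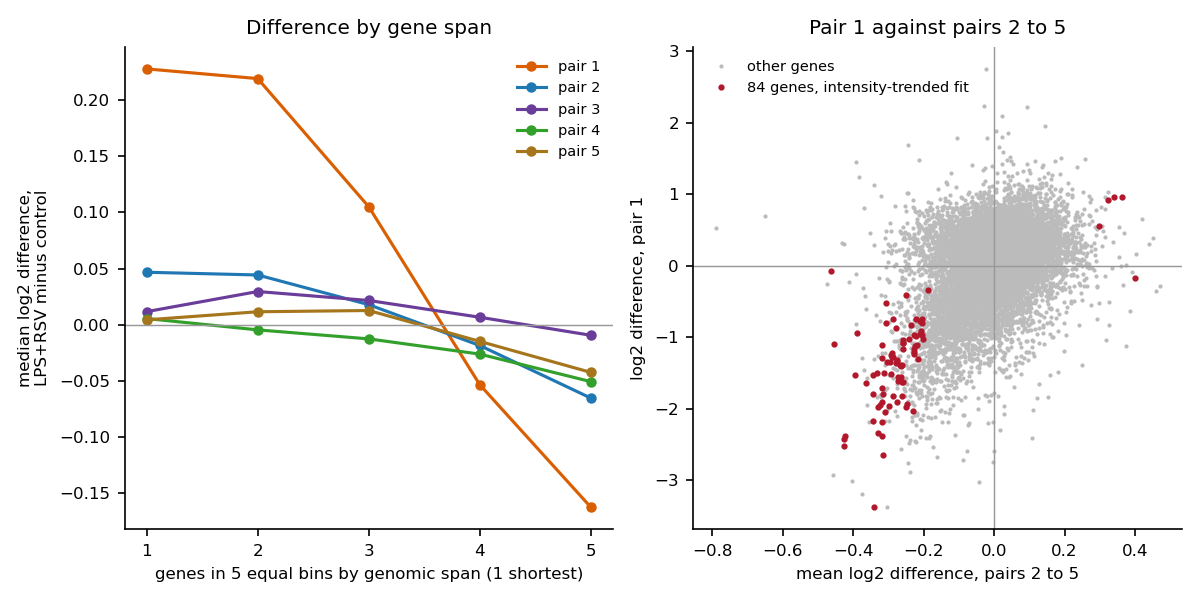
Left, median log2 difference (LPS+RSV minus control) in 5 bins of genes by genomic span, 1 line per pair; pair 1 runs from 0.23 to -0.16 and the other pairs end between -0.07 and -0.01. Right, the pair 1 difference of each gene against its mean difference over pairs 2 to 5, with the 84 genes of the trended and robust fit in red; 82 of them lie on the same side of 0 in pair 1 and further from it.

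Gene lists were described by their counts and medians, beside a median over all genes of 0.02 over 5 pairs and 0.00 over pairs 2 to 5. The share of all genes that were higher was 55.8% over 5 pairs and 50.4% over pairs 2 to 5. Cell cycle and DNA replication genes reversed with pair 1. Of 46 tested, 40 were lower over 5 pairs with a median of -0.13, and 29 were higher over pairs 2 to 5 with a median of 0.04. The list score differed by -0.91 in pair 1 and by 0.00, 0.03, -0.00 and 0.14 in pairs 2 to 5. Control arrays spread far more than the groups differed: their scores were 0.65, 0.61, 0.01, -0.16 and -0.74, and those of LPS+RSV arrays -0.26, 0.62, 0.03, -0.17 and -0.60. LPS arrays 1 to 5 held 0.31, 0.26, 0.18, 0.94 and 1.05, which did not follow the order of the same-numbered control arrays. MKI67, the proliferation marker, read 10.10, 10.02, 9.59, 9.18 and 8.39 in control and 8.88, 10.01, 9.47, 9.06 and 8.42 in LPS+RSV, so that same-numbered arrays of pairs 2 to 5 matched closely. In bulk RNA, fewer dividing cells and less of these messages per cell cannot be told apart.

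Most splicing factors had lower values with and without pair 1, though none was called in the 3 fits. Of 26 splicing and RNA-binding factors, 25 were lower over 5 pairs (median -0.19) and 22 over pairs 2 to 5 (median -0.09), and 13 were lower in all 5 pairs. The score was lower in every pair, by -0.82, -0.09, -0.05, -0.03 and -0.14. SRSF11, an SR protein, HNRNPC, which coats nascent transcripts, and RBM25, a regulator of splice sites, stood at -0.18, -0.20 and -0.20 over pairs 2 to 5. At an unadjusted p under 0.05 over pairs 2 to 5, 4 of the 26 (15.4%) were lower, against 6.22% of all genes.

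The 16 topoisomerase and DNA repair genes were more mixed: 12 were lower and 4 higher over 5 pairs (median -0.09), and 11 lower and 5 higher over pairs 2 to 5 (median -0.05). Their score differed by -0.54, -0.13, 0.01, -0.09 and -0.06 in pairs 1 to 5. At an unadjusted p under 0.05 over pairs 2 to 5, 5 of 16 (31.3%) were lower, against 6.22% of all genes. These were TOP2B, a topoisomerase that cuts both strands, at -0.21, the damage-response kinase ATR at -0.22, and MRE11, RAD50 and NBN, the 3 subunits of the complex that binds broken DNA ends, at -0.19, -0.17 and -0.17. MRE11 and RAD50 were lower in all 5 pairs, and NBN in 4 of 5. CLK4 of the splicing list and RPL39 of the ribosomal list were the only list members among the 84 genes.

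Ribosomal protein genes leaned higher by a small amount. Of 42 tested, 29 were higher over 5 pairs and 33 over pairs 2 to 5, with medians of 0.06 and 0.05. Of all genes, 55.8% and 50.4% were higher. The ribosomal score was higher in all 5 pairs, by 0.08, 0.01, 0.08, 0.06 and 0.05. RPS15A, of the small subunit, was higher in every pair, by 0.25 over pairs 2 to 5. Of 13 respiratory chain genes tested from a list of 53, 9 were higher over 5 pairs and 12 over pairs 2 to 5. Their median was 0.04 in both. Their score differed by 0.02, 0.00, 0.06, 0.03 and 0.14 in pairs 1 to 5. Of 12 genes of protein-folding stress, 7 were higher and 5 lower over 5 pairs (median 0.05) and 10 were higher over pairs 2 to 5 (median 0.08), with SESN2, a stress-induced inhibitor of growth signalling, at 0.23. The 10 keratin and NADPH oxidase genes had a median of 0.06 over pairs 2 to 5, with KRT23 higher by 0.28 and KRT8 lower by -0.19. Tight junction genes (19 tested) and brush border genes (16 tested) had medians of 0.11 and 0.15 over 5 pairs and of 0.01 and 0.02 over pairs 2 to 5.

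**Figure D5:**
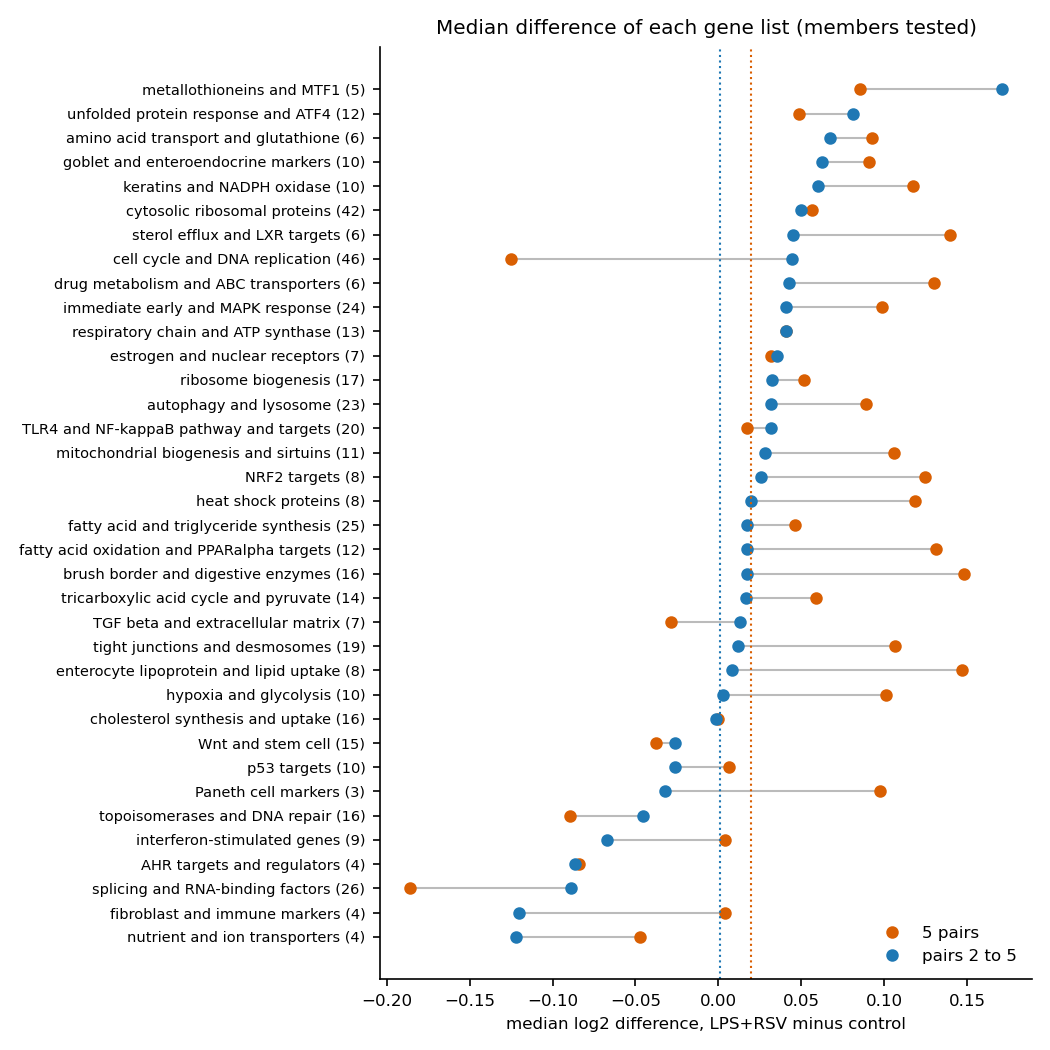
Median log2 difference (LPS+RSV minus control) of each of 36 gene lists over 5 pairs (orange) and over pairs 2 to 5 (blue), with the number of members tested in brackets and dotted lines at the medians of all genes. Cell cycle genes move from -0.13 to 0.04 when pair 1 is left out, while splicing factors stay lower at -0.19 and -0.09.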

How the data were processed

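Members, gene lists and tests were chosen with earlier results of these data known. The deposited log2 values were made with RMA, per the submitters' processing notes; version, genome build and further steps are not given in the sources used here. Of 53617 rows, 16098 carried 1 symbol from the (possibly outdated) platform annotation, 0 carried several and 37519 were unnamed here. Each of 14884 symbols took its brightest probe set, and 11804 genes above the 40th percentile of an array in at least 5 of 15 arrays were tested. Linear models were fitted with limma 3.58.1 in R 4.3.3 to the 2 groups only, with the replicate number as a fixed block or without, and Benjamini-Hochberg adjusted over all 11804 genes at 0.05. Gene spans came from RefSeq, with a value for 100% of genes. Genes named were the 5 of lowest p per fit and direction, called list members and a fixed list; small Cajal body RNAs and SNAR genes were chosen after values were seen, and others were members of lists with an unadjusted p under 0.05. Scripts were tested on simulated data. The number of arrays limits the precision; array medians lay between 5.49 and 5.54. Alternatives covered filter, probe sets, scaling, moderation, array weights, a cell cycle covariate, all 3 groups in the fit, the block and each replicate left out. The labels do not tie numbers to cultures, and the pairing check is given with the results.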

Additional observations from a re-analysis of the deposited data

Results flagged for a closer look

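Within groups of 5 arrays, a highest or lowest value was singled out when its gap to the nearest other array exceeded 0.71 of the group's range. Of 168 groups looked at, 11 met this, and chance gives about 1 in 20, or 8.4. LPS+RSV replicate 1 gave 5 of the 11: AKAP9 at 7.10 against 8.62 to 9.10 in the other LPS+RSV arrays, the splicing factor score at -0.61, the tight junction score at 0.14, the keratin and NADPH oxidase score at 0.19 and the mitochondrial biogenesis and sirtuin score at 0.13. Control replicate 5 was high for ACACB at 6.87 and LINC00974 at 5.13, and low for MT2A at 6.08, where the other control arrays lay between 6.55 and 6.74. LPS+RSV replicate 2 was high for MT1F at 9.25 and NOX1 at 7.13, and LPS+RSV replicate 4 was low for MIR3194 at 6.41.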

How the results depend on the processing

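In each of the 3 fits 0 genes were called under every alternative run, leave-one-out included (0 to 0), except over pairs 2 to 5 with a trended prior: 84 genes with the robust option, and, chosen after seeing the data, 70 without it and 1, 88, 0 and 14 with pairs 2, 3, 4 and 5 left out of the 84-gene fit. With the replicate block removed over pairs 2 to 5, 439 genes rather than 1114 had an unadjusted p under 0.05; over all 5 pairs the block moved that count from 885 to 896, and it changed no call. The same count rose from 896 to 1535 with the cell cycle score as a covariate over 5 pairs and fell to 409 over pairs 2 to 5 with all 3 groups in the fit. Using all rows, named or not, gave 2223, 2432 and 2340 of 33342 rows. Apart from replicates left out, 10 of the named genes crossed the threshold under the trended and robust prior. Counts of genes higher or lower in all 5 pairs stayed within 1.5 times. SCD, not called, changed sign, from -0.04 to 0.13, over 5 pairs with probe sets averaged. The median difference of all genes over 5 pairs lay between 0.01 and 0.04 under the scalings tried.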
